A study of Mus musculus with 23 samples.

Results

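The genes described here encode the β subunits of the Na,K-ATPase (Atp1b1, Atp1b2 and Atp1b3) and 3 of its FXYD regulators (Fxyd1, Fxyd6 and Fxyd7). They were chosen by gene symbol, and the 6 rows are among 24411 genes counted in cortical astrocytes from 23 mice, with 1 library per mouse. ConAstro mice (n = 4) were Aldh7a1 Flox/Flox without Cre, and cKOAstro mice (n = 7) were Slc1a3-CreER/+; Aldh7a1 Flox/Flox, so that the CreER recombinase was driven from the glutamate transporter locus Slc1a3, which is active in astrocytes and in other glial cells. The same 2 genotypes made up SFN-fed ConAstro (n = 5) and, with 7 mice, SFN-fed cKOAstro, which ate chow with sulforaphane (SFN), an activator of the antioxidant transcription factor NRF2, from P21. All 23 mice were labelled male, received 4-hydroxytamoxifen at P3 to P4 whatever their genotype, and were collected at P70. ALDH7A1 is an aldehyde dehydrogenase of lysine breakdown. The comparisons ask whether transcripts of the sodium pump differed with the cKOAstro genotype or with the SFN diet. Only cKOAstro and SFN-fed cKOAstro mice carried CreER at Slc1a3, so loss of Aldh7a1 cannot be told apart from effects of that allele.

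The Na,K-ATPase moves sodium out of the cell and potassium in at the cost of ATP. Its catalytic α subunit does the transport, the β subunit is needed for the enzyme to fold and reach the membrane, and small FXYD proteins bind the complex and tune its affinity for the ions. In the cortex, astrocytes use the pump to clear the potassium that active neurons release and to keep the sodium gradient that drives glutamate uptake. The β2 protein encoded by Atp1b2 was first known as an adhesion molecule on glia, and it is also the antigen of the ACSA-2 antibody whose magnetic beads isolated these cells. The level of Atp1b2 was therefore measured in cells selected for its own protein, and a change that altered which cells were captured cannot be told apart from a change in the level per cell.

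Library totals ran from 46890715 to 391701247 counts, and each of the 6 genes had at least 308 counts in every library, so the spread between libraries and not counting error set the precision. All 10 astrocyte markers (Aldh1l1, Aqp4, Gja1 and others) were detected and summed to 13200 to 24200 CPM per library (counts scaled to a common library total by TMM). The 6 oligodendrocyte markers (Mbp, Mog, Mag and others) summed to 9100 to 21700 CPM, so the libraries labelled as astrocytes also held abundant oligodendrocyte RNA. The 10 neuron markers summed to 213 to 1280 CPM. Aldh7a1 stood at 177 to 226 CPM in the libraries labelled ConAstro or SFN-fed ConAstro and at 43.0 to 77.2 CPM in those labelled cKOAstro or SFN-fed cKOAstro, with 2 exceptions. SFN-fed ConAstro replicate 1, as labelled, had 55.7 CPM, while 222 CPM were measured in SFN-fed cKOAstro replicate 2. Another library, labelled cKOAstro replicate 2, had 1540 CPM of Xist, a transcript of the inactive X chromosome, although it was labelled male. Results are given with these 3 libraries as labelled, and without them where that matters.

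The genes lie on 4 chromosomes of the GRCm38 (mm10) build. Atp1b1 is at chr1:164437109-164458355, Atp1b2 at chr11:69599736-69605942 and Atp1b3 at chr9:96332655-96364442, all on the minus strand. Fxyd6 is on the plus strand at chr9:45370185-45396159. Fxyd1 (chr7:31051678-31057199) and Fxyd7 (chr7:31042513-31051467) are neighbours on the minus strand, and their exons do not overlap. Of the exons of Atp1b1, 575 bases are shared with Nme7 on the opposite strand. Whether the counts kept strand is not given in the sources used here, so reads in that stretch could belong to either gene.

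Per kilobase of exon, Atp1b2 was by far the most abundant of the 6 transcripts. It reached 627 ± 89.2 RPKM (CPM per kilobase of exon, mean ± SD, n = 23), which placed it 27th among the 16590 genes compared. Atp1b3 followed at 124 ± 24.2 RPKM and rank 215, and Atp1b1 at 87.6 ± 11.2 RPKM and rank 356. Ranked within single libraries, Atp1b2 lay between places 20 and 49, Atp1b3 between 121 and 289 and Atp1b1 between 265 and 716. Among the regulators, Fxyd1, which encodes phospholemman, a protein best known as a pump regulator in heart and muscle, had 38.3 ± 4.71 RPKM and rank 1104. Fxyd7, known as a brain-specific member of the family, had 10.8 ± 3.82 RPKM and rank 4364. Fxyd6, which encodes phosphohippolin, was lowest at 4.24 ± 2.02 RPKM and rank 8120.

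**Figure D1:**
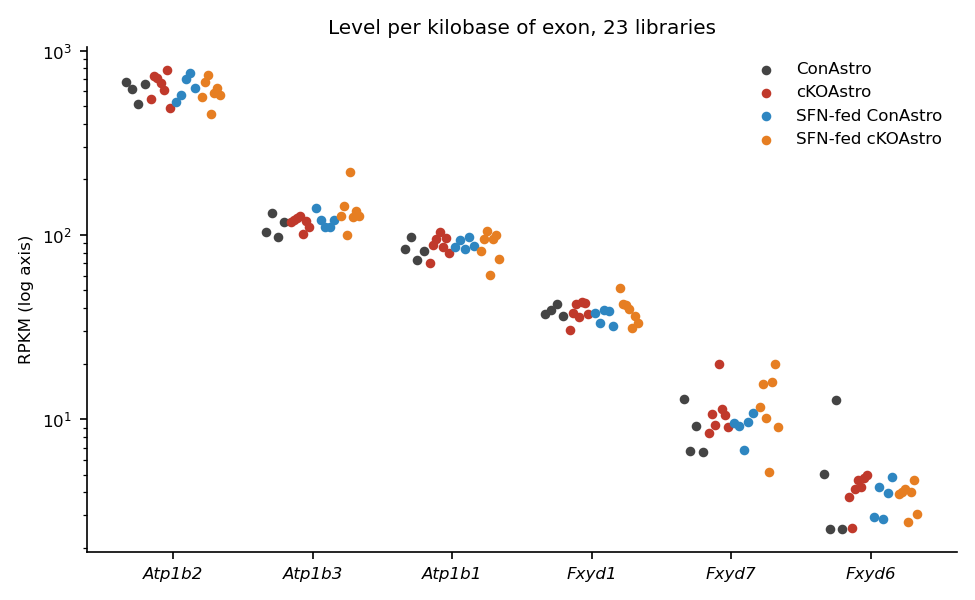
RPKM (log axis) of the 6 genes in the 23 libraries, coloured by group, with genes in the order of their mean. Atp1b2 lies at 455 to 785 RPKM, above every value of the other 5 genes, and the groups lie over each other within each gene.

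The order Atp1b2, Atp1b3, Atp1b1, Fxyd1, Fxyd7, Fxyd6 was taken from the means of these same libraries. Between neighbours it held beyond the spread over libraries. Atp1b2 exceeded Atp1b3 by 2.35 ± 0.37 on the log2 RPKM scale (SD, n = 23), which is 5.09-fold, in 23 of 23 libraries. Atp1b3 exceeded Atp1b1 by only 0.49 ± 0.35, or 1.40-fold, in 22 of 23. The steps from Atp1b1 to Fxyd1 (1.19 ± 0.25), from Fxyd1 to Fxyd7 (1.90 ± 0.52) and from Fxyd7 to Fxyd6 (1.36 ± 0.54) held in 23, 23 and 22 libraries. In 2-sided permutation tests that flipped the sign of the difference in each library (100000 resamples), adjusted p over the 5 steps was 2e-05 for Atp1b3 over Atp1b1 and 1.25e-05 for the other 4. The latter is the smallest the resamples can give here. These tests cover the spread over libraries and not an error in gene length. The place of Fxyd1 rests on the gene length used: its exons cover 2186 bases but its longest transcript has 668, and with the longest transcript Fxyd1 (125 RPKM) stood above Atp1b1 (105 RPKM).

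Within the β family Atp1b2 made up 74.5 ± 3.67% of the summed RPKM, Atp1b3 15% ± 3.79 and Atp1b1 10.5 ± 0.979% (SD, n = 23). The mean share of Atp1b2 was 75.8% in ConAstro, 75.7% in cKOAstro, 74.9% in SFN-fed ConAstro and 72.4% in SFN-fed cKOAstro. The SDs within these groups were 2.3, 2.19, 3.65 and 5.02, in the same order, and the ranges of the groups overlapped. The lowest mean was pulled down by SFN-fed cKOAstro replicate 4, where Atp1b2 held 61.9% and Atp1b3 29.9% of the family. Atp1b2 exceeded Atp1b1 by 7.18 ± 0.751-fold per kilobase, a ratio that stayed between 6.12 and 8.37 in all 23 libraries. Among the 3 FXYD genes, Fxyd1 made up 72.1 ± 6.46% of the summed RPKM, Fxyd7 20% ± 5.80 and Fxyd6 7.86 ± 2.97%. The share of Fxyd1 dropped to 59.4% in cKOAstro replicate 4, where Fxyd7 rose to 32.9%, and to 59.8% in SFN-fed cKOAstro replicate 6. The share of Fxyd6 was highest, at 19.7%, in ConAstro replicate 3.

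**Figure D2:**
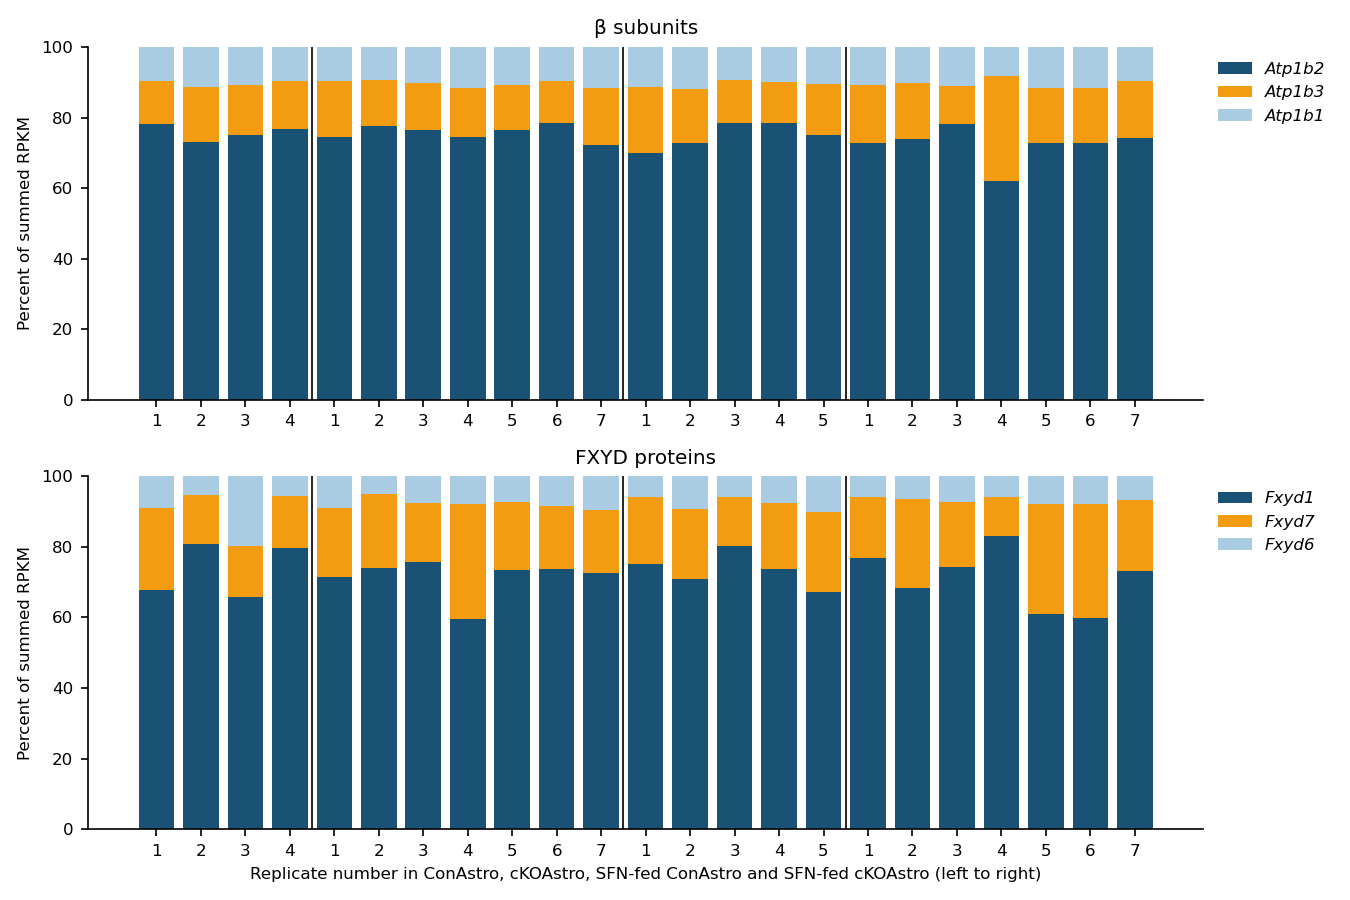
Percent of the summed RPKM of the β genes (top) and of the FXYD genes (bottom) in each library, stacked to 100. Atp1b2 leads the β genes in all 23 libraries and Fxyd1 leads the FXYD genes in all 23. The wide Atp1b3 segment belongs to SFN-fed cKOAstro replicate 4 and the wide Fxyd6 segment to ConAstro replicate 3.

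None of the 6 genes passed the test for genotype on the control diet. In cKOAstro over ConAstro, 0 of the 6 passed edgeR's quasi-likelihood test at an adjusted p under 0.05, where 4 of 17406 genes (0.023%) did, and 0 of the 6 had an unadjusted p under 0.05, where 3.74% of all genes did. DESeq2 and limma-voom called none of the 6 either. The groups overlapped for each of the 6, while 0.575% of all genes did not overlap. The median log2 fold change was 0.06 over the 6 genes and -0.0072 over all genes tested. In these bulk samples fewer cells of a type and less RNA per cell cannot be told apart, here and in each comparison that follows.

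Atp1b2 had 2760, 2530, 2090 and 2680 CPM in ConAstro replicates 1 to 4, and in cKOAstro its lowest, median and highest values were 2000, 2740 and 3210 CPM. The cKOAstro libraries spread on both sides of the ConAstro libraries. The log2 fold change was 0.07 ± 0.13 (SE), with a 95% interval of -0.21 to 0.35, so the interval leaves room for at most a 1.27-fold rise or a 1.16-fold drop. Atp1b1, the β1 subunit found in most tissues, and Atp1b3, the β3 subunit, gave 0.07 ± 0.11 and 0.05 ± 0.08. Fxyd1 gave -0.01 ± 0.09, with an interval of -0.21 to 0.19. In this fit of all libraries as labelled, no interval of these 4 genes reached beyond 1.27-fold in either direction.

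Fxyd6 and Fxyd7 were less certain. Fxyd6 had 20.6, 10.4, 52.1 and 10.4 CPM in ConAstro replicates 1 to 4, against 10.6, 17.6 and 20.5 CPM as the lowest, median and highest in cKOAstro. ConAstro replicate 3 stood alone above all other libraries of the series, and the other 3 ConAstro values lay at or close to the cKOAstro range. The log2 fold change of Fxyd6 was -0.46 ± 0.39 (95% interval -1.30 to 0.39) and became 0.31 (-0.22 to 0.85) without ConAstro replicate 3. Fxyd7 had 8.85, 4.64, 6.39 and 4.57 CPM in ConAstro and 5.79, 7.25 and 13.8 CPM as the lowest, median and highest in cKOAstro. Its highest cKOAstro value belonged to replicate 4, and without that library the log2 fold change of Fxyd7 went from 0.35 ± 0.26 to 0.16 (-0.26 to 0.58). Without ConAstro replicate 1 it was 0.59 (0.01 to 1.17), at an adjusted p of 0.989 by edgeR.

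**Figure D3:**
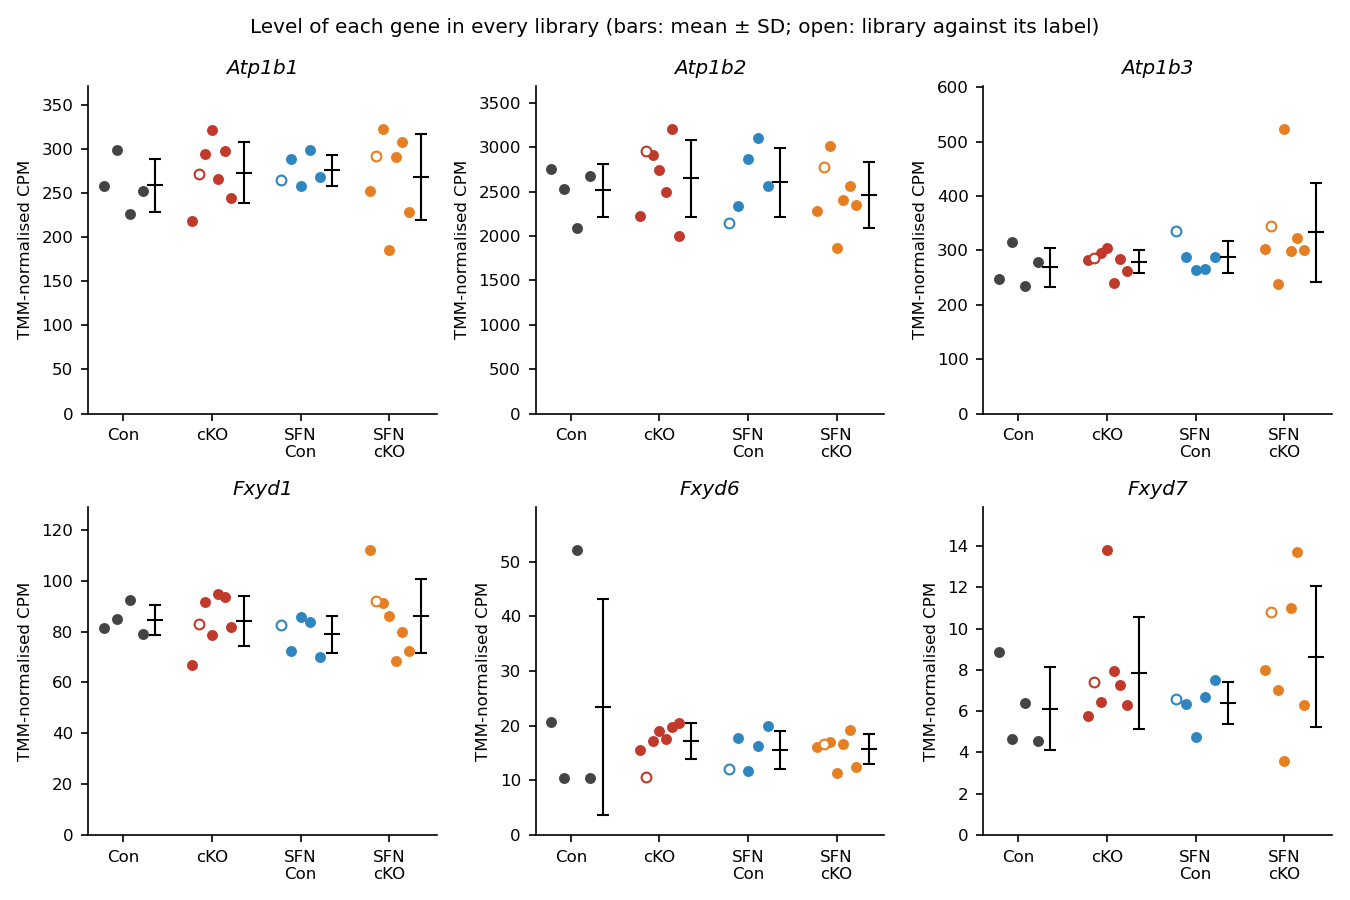
TMM-normalised CPM of each gene in every library of the 4 groups (Con, ConAstro; cKO, cKOAstro), with the group mean ± SD as a bar beside the points and the 3 libraries that go against their labels drawn open. The groups overlap in every panel, and single libraries stand out within their group for Atp1b3 (524 CPM, SFN-fed cKOAstro), Fxyd6 (52.1 CPM, ConAstro) and Fxyd7 (13.8 CPM, cKOAstro). Fxyd7 was as high, at 13.7 CPM, in SFN-fed cKOAstro replicate 6.

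None of the 6 passed the same test between the genotypes on the SFN diet. In SFN-fed cKOAstro over SFN-fed ConAstro, edgeR called 0 of the 6 genes and 0 of 16672 genes (0%), and 0 of the 6 had an unadjusted p under 0.05 against 20.3% of all genes. Each of these groups held a library with the Aldh7a1 level of the other genotype. As labelled, edgeR did not call even Aldh7a1, so the absence of calls says little about the 6 genes. The groups overlapped for all 6 genes, against 1.18% of all genes whose groups did not overlap. DESeq2 called 0 of the 6 genes and 250 of all genes, limma-voom called 1 of the 6 and 4398 of all genes, and edgeR without SFN-fed cKOAstro replicate 3 called 701 genes and 0 of the 6. The β genes gave -0.04 ± 0.12 (Atp1b1), -0.08 ± 0.13 (Atp1b2) and 0.21 ± 0.16 (Atp1b3) on the log2 scale, and Fxyd1 and Fxyd6 gave 0.12 ± 0.11 and 0.00 ± 0.16. The Atp1b3 value was 0.05 (95% interval -0.16 to 0.26) without SFN-fed cKOAstro replicate 4 and 0.27 (-0.04 to 0.59) without replicate 3. Without the 3 libraries that go against their labels, edgeR called 2 genes and 0 of the 6. Atp1b1 then gave -0.08 (-0.38 to 0.23), Atp1b2 -0.17 (-0.48 to 0.14) and Atp1b3 0.27 (-0.16 to 0.69). Fxyd6 was as low in both groups, at 11.4 to 19.3 CPM in SFN-fed cKOAstro and 11.8 to 19.9 CPM in SFN-fed ConAstro.

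Fxyd7 gave the largest difference between the SFN-fed genotypes. It had 6.58, 6.37, 4.74, 6.70 and 7.52 CPM in SFN-fed ConAstro replicates 1 to 5, and 3.60, 8.01 and 13.7 CPM as the lowest, median and highest in SFN-fed cKOAstro. The SFN-fed cKOAstro libraries held both the lowest and the highest of these values. The log2 fold change was 0.43 ± 0.26 (95% interval -0.14 to 1.00, adjusted p = 0.358 by edgeR). By limma-voom, which gave less weight to libraries that stood apart, Fxyd7 rose by 0.75 ± 0.22 at an adjusted p of 0.0278, the 1 call of a member under any of the tests tried. The same limma-voom fit called 4398 of 16672 genes, so such a call is not particular to Fxyd7. Over the same groups the summed CPM of the 10 neuron markers ran from 367 to 967 in SFN-fed ConAstro and from 213 to 1110 in SFN-fed cKOAstro, with none of the 10 at 0, and the part of neuronal RNA in the Fxyd7 difference was not tested. Without the 3 libraries that go against their labels the edgeR log2 fold change was 0.39 (-0.30 to 1.07), and without SFN-fed cKOAstro replicate 4 it was 0.56 (0.12 to 1.00), at an adjusted p of 0.207.

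**Figure D4:**
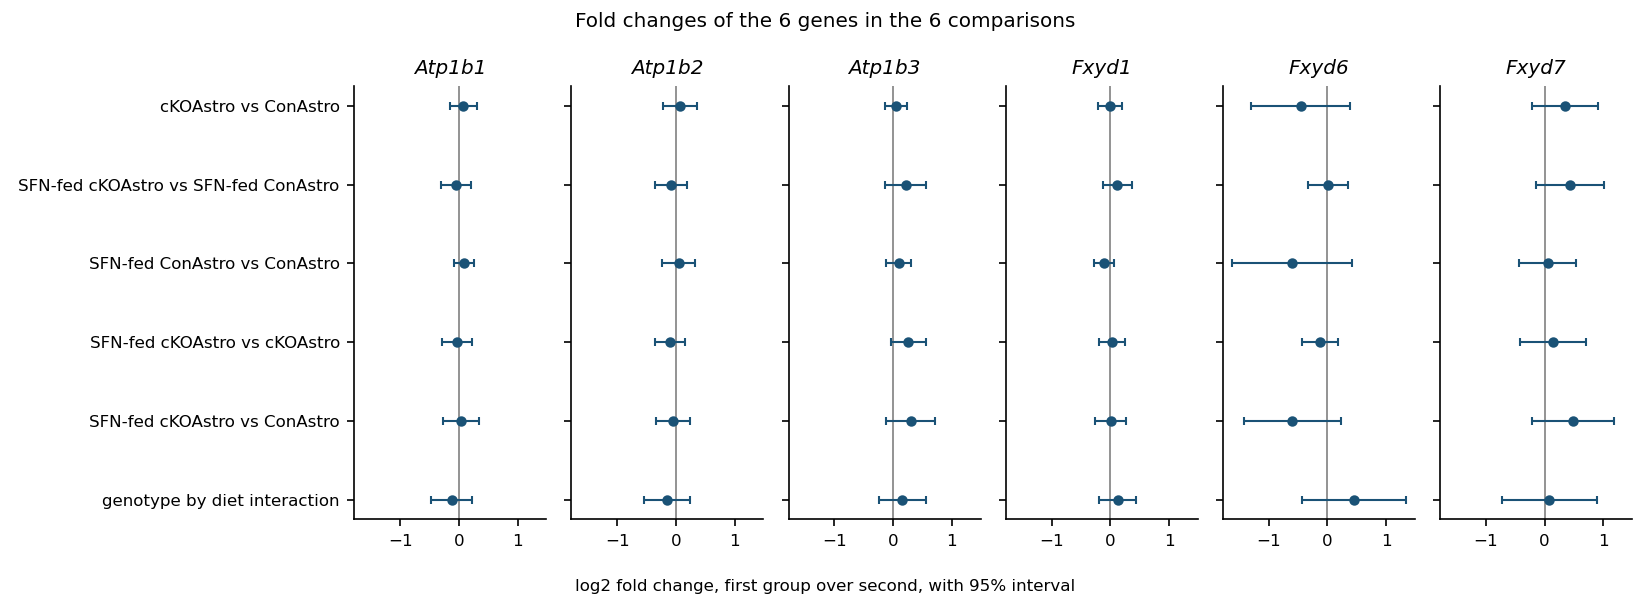
Log2 fold changes of the 6 genes (columns) in the 6 comparisons (rows), first group over second, with 95% intervals from the edgeR fit. Every interval includes 0. The widest intervals are those of Fxyd6 where ConAstro takes part and of Fxyd7.

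None of the 6 passed the test for the SFN diet in either genotype. In SFN-fed ConAstro over ConAstro, edgeR called 0 of the 6 genes and 0 of 16509 genes (0%), with 0 of the 6 and 6.54% of all genes at an unadjusted p under 0.05, and no member without overlap against 2.09% of all genes. In SFN-fed cKOAstro over cKOAstro it called 0 of the 6 and 0 of 16903 (0%), with 0 of the 6 and 10.9% of all genes at an unadjusted p under 0.05, and no member without overlap against 0.112% of all genes. DESeq2 called 24 and 15 genes in these comparisons and limma-voom none, and neither called any of the 6. In ConAstro the diet's log2 fold changes were 0.09 ± 0.08 for Atp1b1, 0.04 ± 0.13 for Atp1b2, 0.09 ± 0.10 for Atp1b3 and -0.11 ± 0.08 for Fxyd1. Fxyd6 gave -0.61 ± 0.46 with ConAstro replicate 3 and 0.16 (-0.45 to 0.78) without it. No prefix of the library names held both SFN-fed ConAstro and ConAstro, so prefix and diet cannot be told apart there.

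By edgeR, Atp1b3 had the lowest p of the 6 genes for the diet, in cKOAstro. Its lowest, median and highest values were 241, 285 and 304 CPM in cKOAstro and 238, 302 and 524 CPM in SFN-fed cKOAstro. Of the 7 SFN-fed cKOAstro libraries, replicate 4 stood far above the other 6, which reached 345 CPM at most. The log2 fold change was 0.26 ± 0.14 (95% interval -0.04 to 0.55), with an unadjusted p of 0.0848 and an adjusted p of 0.492 by edgeR. The value was 0.11 (-0.07 to 0.28) without replicate 4, 0.34 (0.06 to 0.61, adjusted p = 0.208 by edgeR) without replicate 3 and 0.25 (0.0017 to 0.50, adjusted p = 0.349) with all 4 groups in 1 fit. SFN-fed cKOAstro replicate 4 also had the highest sum of the oligodendrocyte markers, 21700 CPM against 9500 to 14700 CPM in the other 6 libraries of its group, and the lowest sum of the astrocyte markers, 13200 CPM. It had the lowest Atp1b1 (186 CPM), Atp1b2 (1860 CPM) and Fxyd7 (3.60 CPM) of the series as well. Within the libraries whose names begin with Astro, 3 SFN-fed cKOAstro against 2 cKOAstro, Atp1b3 gave 0.37 (-0.29 to 1.03), and this subset includes replicate 4.

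Set against untreated controls, SFN-fed cKOAstro shared its ConAstro libraries with the genotype and diet comparisons above, so its values are not a separate line of evidence. For Atp1b3 the log2 fold change was 0.30 ± 0.19, for Fxyd7 0.48 ± 0.32 and for Fxyd6 -0.60 ± 0.38, while Atp1b1, Atp1b2 and Fxyd1 lay between -0.05 and 0.03. Atp1b3 gave 0.15 (-0.10 to 0.40) without SFN-fed cKOAstro replicate 4 and 0.37 (0.0017 to 0.74, adjusted p = 0.305 by edgeR) without replicate 3. Fxyd6 turned to 0.18 (-0.34 to 0.70) without ConAstro replicate 3. It was -0.83 (-1.63 to -0.03, adjusted p = 0.756 by edgeR) without ConAstro replicate 2 and -0.83 (-1.64 to -0.02, adjusted p = 0.73 by edgeR) without ConAstro replicate 4. Fxyd7 gave 0.62 (0.03 to 1.21, adjusted p = 0.576 by edgeR) without SFN-fed cKOAstro replicate 4, and 0.85 ± 0.28 by limma-voom (adjusted p = 0.0743). EdgeR called 0 of the 6 genes and 0 of 16753 genes (0%), 0 of the 6 and 8.67% of all genes had an unadjusted p under 0.05, and no member was without overlap against 1.12% of all genes. By DESeq2 8 genes passed and by limma-voom 656, none of them among the 6. Within the libraries whose names begin with 143 (3 SFN-fed cKOAstro, 4 ConAstro), Atp1b3 gave 0.22 (-0.06 to 0.49) and Fxyd7 gave 0.43 (-0.23 to 1.10). All ConAstro libraries bore that prefix, which no cKOAstro library had, so prefix and genotype cannot be told apart in cKOAstro over ConAstro.

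No difference in the genotype effect between the diets passed the test for any of the 6. The interaction, (SFN-fed cKOAstro over SFN-fed ConAstro) over (cKOAstro over ConAstro), was called by edgeR for 0 of the 6 genes and 0 of 17302 genes (0%), and 0 of the 6 had an unadjusted p under 0.05 against 7.32% of all genes. None of the 6 was among the 3 genes called by DESeq2, and limma-voom made no call. Its log2 values were -0.12 ± 0.17 for Atp1b1, -0.15 ± 0.19 for Atp1b2, 0.15 ± 0.19 for Atp1b3 and 0.13 ± 0.15 for Fxyd1. Without SFN-fed cKOAstro replicate 4 the 3 β genes gave -0.04, -0.09 and 0.0097. Fxyd7 gave 0.08 ± 0.39, and Fxyd6 gave 0.45 ± 0.43 with ConAstro replicate 3 and -0.33 (-0.95 to 0.29) without it. In the fit of all libraries as labelled, the widest bound on the β genes was 1.47-fold. For Fxyd6 and Fxyd7 the intervals of that fit reached 2.53-fold and 1.84-fold. Other settings left more room for the β genes. Without the 3 libraries that go against their labels, Atp1b2 gave -0.21 (-0.62 to 0.19) and Atp1b3 0.22 (-0.25 to 0.68). With the name prefix as a block they gave -0.21 (-0.78 to 0.37) and 0.09 (-0.58 to 0.76).

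Between libraries, the 6 genes differed in how much they varied and in what they varied with. The coefficient of variation over the 23 libraries was 12.8% for Atp1b1, 14.2% for Atp1b2 and 12.3% for Fxyd1, close to the median of 13.6% over 14181 genes. It was 19.5% for Atp1b3, 35.4% for Fxyd7 and 47.6% for Fxyd6, and 95.4% of genes varied less than Fxyd6. The spread of Fxyd6 was 22.1% without ConAstro replicate 3 and that of Atp1b3 10.6% without SFN-fed cKOAstro replicate 4, while Fxyd7 kept at least 32.3% whichever library was left out. Over the 27 relations of the genes with each other and with the neuron and astrocyte markers, 7 passed an adjusted p of 0.05 by Pearson's r and 5 by Spearman's rho, of which 4 passed by both. These relations share the library, its depth and its mix of cells, and say nothing of cause.

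Atp1b2 followed the astrocyte markers. Over 23 libraries its log2 CPM had a Pearson r of 0.922 (Spearman rho 0.899) with the log2 of the summed markers, with an adjusted p of 0.000135 for both by permutation, which is the smallest the resamples can give here. The r was 0.879 without the 2 libraries farthest from the median, 0.926 in the 17 libraries with numbered names and 0.954 in the 6 named Astro. The genes most like Atp1b2 among 14181 were Slc41a1, a magnesium transporter (r = 0.947), Gja1, the astrocyte gap junction protein connexin 43 (r = 0.937) and itself on the marker list, and Lsamp, a cell adhesion protein (r = 0.931). Since the cells were captured through the Atp1b2 protein, the relation describes libraries from such a capture.

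Fxyd7 followed the neuron markers and not the astrocyte markers. Its r with the neuron list was 0.927 (rho 0.852, adjusted p = 0.000135 for both by permutation, n = 23), with 0.912 without the 2 farthest libraries, 0.883 in the numbered libraries and 0.989 in those named Astro. With the astrocyte list its r was 0.0989 (rho 0.0603, adjusted p = 0.783 and 0.919 by permutation). Its likest genes were Rbfox3, which encodes the neuronal nuclear protein NeuN (r = 0.966), Nrgn, the postsynaptic protein neurogranin (r = 0.955), and Stmn3, a microtubule regulator (r = 0.954), the first 2 of them on the neuron list. The extremes agreed: cKOAstro replicate 4 had the highest Fxyd7 (13.8 CPM) and the highest neuron sum (1280 CPM), and SFN-fed cKOAstro replicate 4 had the lowest of each (3.60 and 213 CPM).

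Atp1b3 followed the oligodendrocyte markers, in a set of 54 relations with the other 9 marker lists that was added after the values had been seen. Its r with the 6 oligodendrocyte markers was 0.893 (rho 0.796), with an adjusted p of 0.00054 for each over the 54 by permutation, the smallest that the resamples can give for 1 relation alone. No other relation of that set passed for both r and rho. Without the 2 libraries farthest from the median the r was 0.753. Without SFN-fed cKOAstro replicate 4 the r was 0.755, it was 0.729 in the 17 numbered libraries and 0.936 in the 6 named Astro. The likest genes were Evi2a (r = 0.964), Rhog, a small GTPase (r = 0.959), and Sept4, a septin (r = 0.957). With the astrocyte markers the r of Atp1b3 was -0.532 (rho -0.353, adjusted p = 0.0373 and 0.268 by permutation), but it was -0.0677 in the numbered libraries and did not hold there.

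**Figure D5:**
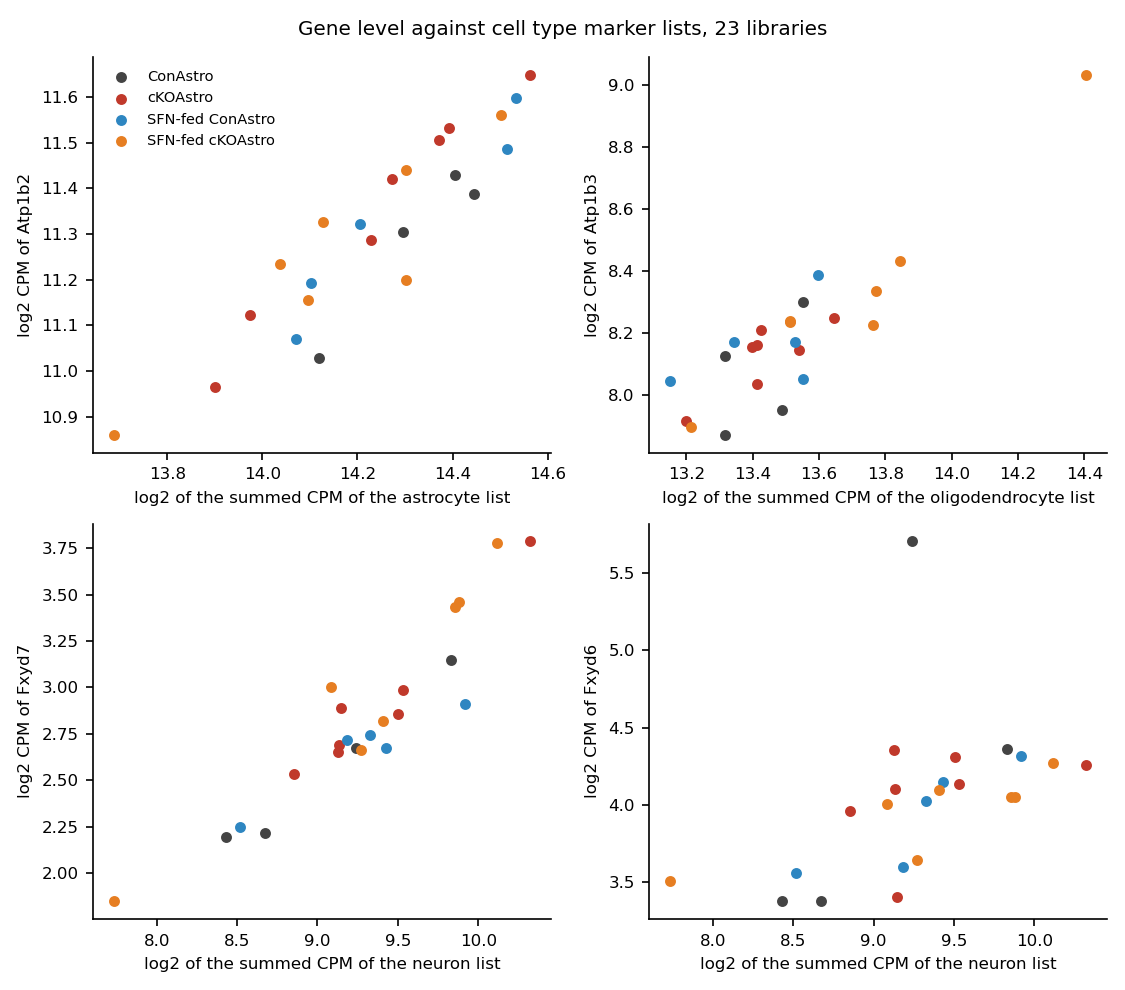
Log2 CPM of 4 genes against the log2 of the summed CPM of a marker list, 1 point per library (23), coloured by group. Atp1b2 rises with the astrocyte list (r = 0.922), Atp1b3 with the oligodendrocyte list (r = 0.893) and Fxyd7 with the neuron list (r = 0.927), while Fxyd6 rises with the neuron list apart from 1 ConAstro library at 52.1 CPM.

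Atp1b1 lay between these patterns. It varied with Atp1b2 (r = 0.72, rho 0.697, adjusted p = 0.00108 and 0.0036 by permutation), with r of 0.725 in the numbered libraries and 0.792 in those named Astro. Its r with the neuron markers was 0.643 (rho 0.549, adjusted p = 0.00655 and 0.0395 by permutation), but 0.26 in the numbered libraries, so that relation rests on the 6 libraries named Astro, where r was 0.983. With the astrocyte markers its r was 0.585 (rho 0.465, adjusted p = 0.0153 and 0.0882 by permutation), 0.573 in the numbered libraries and 0.288 without the 2 libraries farthest from the median. The likest genes were Nptn, the adhesion protein neuroplastin (r = 0.873), Fads3, a fatty acid desaturase (r = 0.858), and Cnr1, the cannabinoid receptor CB1 (r = 0.856).

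Fxyd6 had an r of 0.48 with the neuron markers (adjusted p = 0.0799) and a rho of 0.646 (adjusted p = 0.00763, both by permutation), and r was 0.713 without the 2 farthest libraries, of which ConAstro replicate 3 was the highest. Its likest genes were Nmnat2, an enzyme that maintains axons (r = 0.919), Slitrk1, a synaptic adhesion protein (r = 0.873), and Grik3, a kainate receptor subunit (r = 0.849). Fxyd1 passed with none of the other 5 genes and with neither list, its r with the astrocyte and neuron markers being 0.212 and -0.158. Its likest genes were S100a1, a calcium-binding protein (r = 0.906), Cox7b, a subunit of cytochrome c oxidase (r = 0.895), and Tspan3, a tetraspanin (r = 0.877).

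Since SFN acts through NRF2, the promoters of the genes were searched for the core of its binding motif, TGACNNNGC, on both strands. RefSeq promoter windows of 300 bases (build GRCm38.p6) were at hand for 4 of the 6 genes, with 2 windows for Atp1b3 at separate start sites. The motif was in both Atp1b3 windows and in that of Fxyd6, and these letters were not in the windows of Atp1b1 and Fxyd1. Of all 32851 promoter windows 12.4% held it. The 59 bases around each match are shown for the 2 genes that had one, 5′ to 3′ along the gene with the motif in capitals. The Atp1b3 stretches are on the minus strand at chr9:96363733-96363791, inside the gene's annotated span but in no exon, and at chr9:96364436-96364494, of which 7 bases are exonic. The Fxyd6 stretch is on the plus strand at chr9:45370092-45370150, before the annotated gene. A match is a description of the letters and shows no binding, and neither gene passed edgeR's test for the diet.
Atp1b3, start site inside the gene: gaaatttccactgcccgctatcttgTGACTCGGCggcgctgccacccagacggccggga
Atp1b3, start site at the gene's 5′ boundary: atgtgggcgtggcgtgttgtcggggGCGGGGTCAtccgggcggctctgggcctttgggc
Fxyd6: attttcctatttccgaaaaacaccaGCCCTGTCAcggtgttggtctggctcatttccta

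The wider pump family gave no calls either. Of 22 rows for subunits of the Na,K-ATPase and H,K-ATPase, FXYD proteins and the NKAIN proteins that interact with β1, 19 were tested in each comparison and 0 were called by edgeR in any of the 6, with 1 at an unadjusted p under 0.05 between the SFN-fed genotypes (5.26%, against 20.3% of all genes), 2 in SFN-fed ConAstro over ConAstro (10.5%, against 6.54%) and 0 in the other 4 comparisons, where 3.74 to 10.9% of all genes had one. Nkain1, Nkain4 and Nkain2 were well expressed, at means of 311, 149 and 102 CPM. Fxyd5, the neighbour of Fxyd7 known as dysadherin, had a mean of 6.97 CPM and the lowest unadjusted p of the family, 0.00951 in SFN-fed ConAstro over ConAstro, where its log2 fold change was 0.76 ± 0.24 (adjusted p = 0.762 by edgeR). Of 15 transporters that load astrocytes with sodium or move it with potassium, 15 were tested and 0 were called by edgeR in any comparison. Of all genes, edgeR called 0.023% in cKOAstro over ConAstro and 0% in every other comparison. At an unadjusted p under 0.05, 2 of the 15 were higher in SFN-fed ConAstro over ConAstro (13.3%, against 6.54% of all genes). There was 1 lower between the SFN-fed genotypes (6.67%, against 20.3%) and 1 lower in SFN-fed cKOAstro over ConAstro (6.67%, against 8.67%). The lowest of their unadjusted p values was 0.0252 (adjusted p = 0.762 by edgeR), for the sodium-calcium exchanger gene Slc8a1 in SFN-fed ConAstro over ConAstro. Its log2 fold change was 0.21 ± 0.08, and it is named because of that p value. Their median log2 fold change in cKOAstro over ConAstro was -0.08, against -0.0072 over all genes. The glutamate transporter gene Slc1a3, whose locus drove CreER, was not among the 15. It ran from 1810 to 2870 CPM in cKOAstro, against 3960 to 4980 CPM in ConAstro. The paper reports it as differing between these genotypes on either diet, so the absence of calls does not cover it. The β genes were among the sodium pump genes that the study itself drew from these libraries, so their direction here is not independent evidence.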

How the data were processed

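Cortical astrocytes were isolated with ACSA-2 magnetic beads, and poly(A) RNA was sequenced as paired ends. The authors deposited 1 table of raw counts of reads per gene symbol for the 23 libraries. Reads were checked with FastQC, aligned with STAR and counted by STAR's own gene counting. The strand column taken from it, the annotation and the versions are not given in the sources used here. The mm10 build matches the GRCm38 coordinates of GENCODE M21, from which exon lengths and positions were taken by symbol.

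The deposited counts were tested with edgeR 4.0.16 (R 4.3.3): TMM normalization, filterByExpr (minimum count 10, minimum total 15), quasi-likelihood fits on the 2 groups compared or on all 4 for the interaction, and Benjamini-Hochberg adjustment over all genes tested at 0.05. SEs are the log2 fold change over the square root of F. Log2 CPM used a prior count of 2, and RPKM is TMM-normalised CPM per kilobase of the union of exons. DESeq2 1.42.0, limma 3.58.1 (voom with quality weights), RLE scaling, no filter, thinned counts, name prefixes and left-out libraries were alternatives. The within-prefix fits, the coefficients of variation without single libraries and the 54 added correlations were chosen after the data were seen. The edgeR fits were tested on simulated data. Correlations used 100000 permutations. No 2 libraries of a group agreed within sampling noise.

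The genes named are the 6 members in every comparison, the 3 genes most correlated with each, and family genes above 1 mean CPM. The rows of the α subunits are counted with the family and are not reported here singly. From the oligodendrocyte list, 1 marker was left out of every sum and is not reported here. The members and lists were chosen with earlier results of these data known.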

Additional observations from a re-analysis of the deposited data

Results flagged for a closer look

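In 40 sets of values (6 genes, 2 shares and 2 marker sums, each in 4 groups), 5 held a library farther from its neighbours than Dixon's 95% limit for its group. Chance flags about 1 in 20 groups, and the 5 come from 2 libraries. SFN-fed cKOAstro replicate 4 had 524 CPM of Atp1b3, where the next of the 7 had 345 CPM. The same library had the lowest share of Atp1b2 among the β RPKM, 61.9%. The library cKOAstro replicate 4 had 13.8 CPM of Fxyd7, where the next had 7.93 CPM, and 59.4% for the share of Fxyd1 among the FXYD RPKM. Its summed neuron markers were 1280 CPM, where the next had 739 CPM. ConAstro replicate 3 (52.1 CPM of Fxyd6) was not past the limit for a group of 4.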

How the results depend on the processing

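The 36 fold changes of the 6 genes were recomputed in 834 alternatives. Of these 761 kept their sign and stayed past no threshold, 72 had the opposite sign and 1 passed the threshold (Fxyd7 by limma-voom), and 13 of the 36 never changed sign. Of the 834, 14 had an unadjusted p under 0.05, for Fxyd7 (6), Atp1b3 (5), Fxyd6 (2) and Atp1b1 (1). As none of the 36 was called, a sign change is within its interval. The limit was the spread between libraries, in which the mouse and its cell preparation cannot be told apart. The cause of each difference listed here was not tested unless the setting itself gives it. All further values of genes are log2 fold changes.

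Counts of all genes called moved most. DESeq2 called 8 genes in cKOAstro over ConAstro, 250 in SFN-fed cKOAstro over SFN-fed ConAstro, 24 in SFN-fed ConAstro over ConAstro, 15 in SFN-fed cKOAstro over cKOAstro, 8 in SFN-fed cKOAstro over ConAstro and 3 in the interaction. Limma-voom called 4398 in SFN-fed cKOAstro over SFN-fed ConAstro, with 1 of the 6 genes, and 656 in SFN-fed cKOAstro over ConAstro. All 4 groups in 1 fit called 0 in cKOAstro over ConAstro and 3 in SFN-fed cKOAstro over SFN-fed ConAstro. Without the 3 libraries against their labels, 2 genes each were called in SFN-fed cKOAstro over SFN-fed ConAstro and over ConAstro. Leaving out 1 library at a time gave 2 (without ConAstro replicate 4) to 4 genes in cKOAstro over ConAstro, 0 to 701 (without SFN-fed cKOAstro replicate 3) in SFN-fed cKOAstro over SFN-fed ConAstro, 0 to 1 in SFN-fed ConAstro over ConAstro and 0 to 2 in SFN-fed cKOAstro over ConAstro.

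The replicate numbers did not pair the mice. Deviations from the group means in 29 pairs with the same number had a median r of -0.0143 (from -0.22 to 0.336), against -0.00743 in other pairs. With the replicate block 1 gene was called in cKOAstro over ConAstro, none of the 6 genes was called in any comparison, and Atp1b1 turned to -0.013 in SFN-fed cKOAstro over ConAstro.

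In cKOAstro over ConAstro, limma-voom gave -0.0021 for Atp1b3, 0.044 for Fxyd1 and 0.25 for Fxyd6, and Fxyd1 gave 0.027 in the numbered libraries and 0.0061 with thinned counts. Between the SFN-fed genotypes, limma-voom gave 0.028 for Atp1b1, the prefix block gave 0.069 for Atp1b1, 0.079 for Atp1b2 and -0.0043 for Atp1b3, and Fxyd6 gave -0.085 without the 3 libraries and -0.093 in the numbered libraries. In SFN-fed ConAstro over ConAstro, limma-voom gave -0.023 for Atp1b2 and 0.082 for Fxyd6. For SFN-fed cKOAstro over cKOAstro, limma-voom gave 0.059 for Atp1b1 and -0.026 for Fxyd1, the numbered libraries gave 0.025 for Atp1b1, the prefix block gave -0.045 for Fxyd1, 0.087 for Fxyd6 and -0.16 for Fxyd7, and the libraries named Astro gave -0.043, 0.091 and -0.15 for the same 3. In SFN-fed cKOAstro over ConAstro, the prefix block gave -0.028 and prefix 143 alone -0.025 for Atp1b1, the numbered libraries gave 0.028 for Atp1b2, and limma-voom gave -0.011 for Fxyd1 and 0.19 for Fxyd6. For the interaction, limma-voom gave 0.0038 for Atp1b1 and -0.11 for Fxyd6, and the prefix block gave -0.059 for Fxyd1 and -0.40 for Fxyd7.

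Leaving out 1 library at a time turned the sign in these ranges. In cKOAstro over ConAstro, Atp1b2 ran from -0.011 to 0.12, Atp1b3 from -0.009 to 0.14, Fxyd1 from -0.041 to 0.041 and Fxyd6 from -0.69 to 0.31 (without ConAstro replicate 3). Between the SFN-fed genotypes, Atp1b1 ran from -0.0902 to 0.019 and Fxyd6 from -0.082 to 0.11. In SFN-fed ConAstro over ConAstro, Atp1b2 ran from -0.039 to 0.10, Fxyd6 from -0.85 to 0.16 and Fxyd7 from -0.065 to 0.28. For SFN-fed cKOAstro over cKOAstro, Atp1b1 ran from -0.079 to 0.047, Fxyd1 from -0.031 to 0.081 and Fxyd7 from -0.0018 to 0.35. In SFN-fed cKOAstro over ConAstro, Atp1b1 ran from -0.011 to 0.12, Atp1b2 from -0.11 to 0.015, Fxyd1 from -0.056 to 0.067 and Fxyd6 from -0.83 to 0.18. In the interaction, Fxyd6 ran from -0.33 to 0.71 and Fxyd7 from -0.16 to 0.28.

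With the longest transcript as the length, mean RPKM was 105 for Atp1b1, 148 for Atp1b3, 125 for Fxyd1 and 7.38 for Fxyd6, the step from Atp1b1 to Fxyd1 turned to -0.26 on the log2 scale, and Fxyd1 held 87.5, 87.1, 88.1 and 86.9% of the FXYD RPKM in ConAstro, cKOAstro and their SFN-fed counterparts. Correlations in the numbered libraries turned sign with r of 0.156 for Atp1b1 with Atp1b3, -0.214 for Atp1b1 with Fxyd6, 0.0503 for Atp1b2 with Atp1b3, 0.078 for Atp1b3 with Fxyd7 and 0.326 for Fxyd1 with Fxyd7. There the neuron list gave 0.26 with Atp1b1 and 0.0286 with Fxyd1, and the astrocyte list gave 0.573 with Atp1b1, -0.0677 with Atp1b3 and -0.0556 with Fxyd7. With group means removed, r was 0.528 for Fxyd6 with the neuron list, now past the threshold, and -0.481 for Atp1b3 with the astrocyte list, no longer past it. The mean of log2 CPM over the astrocyte list gave -0.375 with Atp1b3, no longer past the threshold.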

Other observations

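The choroid plexus, the secretory epithelium of the ventricles, is known for high Fxyd1 and pump expression, and its 5 markers differed widely between libraries. They summed to 4250 CPM in ConAstro replicate 2 and 3480 CPM in SFN-fed ConAstro replicate 1, against a median of 39.5 CPM over the 23 libraries. Fxyd1 stood at 85.0 and 82.5 CPM in these 2 libraries, close to its median of 82.8 CPM. Over 23 libraries the r of Fxyd1 with the choroid plexus list was 0.261 (adjusted p = 0.441 over the 54 added relations, by permutation).

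ConAstro replicate 3, the library with the highest Fxyd6, also had the highest sum of the 5 ependymal markers, 599 CPM against a median of 294 CPM. The r of Fxyd6 with that list was 0.442 over 23 libraries (adjusted p = 0.185 over the 54, by permutation), and rho was 0.277 (adjusted p = 0.528). Without ConAstro replicate 3 the r was 0.23, so the value leans on that library. In cKOAstro replicate 7 the ependymal markers summed to 570 CPM and Fxyd6 was at 20.5 CPM.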
